A study of Mus musculus with 6 samples.

Results

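The genes described here are 49 genes of the complement system, of blood coagulation and of fibrinolysis, measured by RNA-Seq in mouse liver with and without induced deletion of *Spns1*. They were found by gene symbol in the deposited table, each in 1 entry of the 54532 genes listed, and all 49 passed the filter on low counts that left 15449 genes to test. Of these, 23 belong to complement and 26 to clotting, a term used here for coagulation, its inhibitors and fibrinolysis together. By textbook knowledge, 40 are made mainly by hepatocytes, and 9 (*Cfd*, *Cfp*, *C7*, *F3*, *F8*, *Thbd*, *Plat*, *Plau* and *Plaur*) mainly by other cells.

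The study asked what loss of SPNS1, a lysosomal transporter of lysolipids, does to the mouse. RNA from the liver of 3 g*Spns1*-cKO mice and 3 controls, all on a C57BL/6 background, was sequenced with 1 library per liver. The g*Spns1*-cKO mice carried *Spns1* alleles with loxP sites around exon 3 (*Spns1* fl/fl) and a tamoxifen-inducible Cre recombinase (Rosa26Cre-ERT2), and received tamoxifen at 50 mg/kg on postnatal days 11, 13 and 15. Per the methods the controls were *Spns1* fl/fl littermates, while the sample labels call them wild type. Whether the controls received tamoxifen, and the age and sex of the 6 mice, are not given in the sources used here. Rosa26 is active in most cell types, so the deletion was not limited to hepatocytes, and whole liver was sequenced.

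Complement and coagulation are cascades of plasma proteases, in which each enzyme is secreted as an inactive precursor and activated by the step before it. Hepatocytes secrete most of the proteins of both cascades and also most of their inhibitors, while endothelial cells, macrophages and fibroblasts supply the receptors, cofactors and activators that work at cell surfaces. Several of the hepatocyte genes are acute-phase genes, induced by interleukin-6 during inflammation, and in mice terminal complement genes are known to be expressed more strongly in males.

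The libraries held 30350002 to 35295611 counts. Levels are given in CPM, the usual depth-normalised count, with library sizes scaled by TMM, a method that assumes that most genes do not differ, with factors of 0.834 to 0.873 in control and 1.16 to 1.18 in g*Spns1*-cKO libraries. Without these factors the log2 fold changes moved upward, from a median of 0.014 to one of 0.46 over all genes tested, so the scaling shifts every gene named here by a similar amount. A gene passed the test, and is said to be higher or lower, at an adjusted p under 0.05 in the quasi-likelihood test of edgeR, adjusted by the Benjamini-Hochberg method over all 15449 genes; every adjusted p is from this test unless another is named. *Spns1* itself was lower (log2 fold change -0.87, SE 0.25, adjusted p = 0.0300), and with library size only its log2 fold change was -0.43 (adjusted p = 0.213). *Spns1* passed in 3 of 6 fits that left out 1 library, and not without control replicate 2 (adjusted p = 0.0785) or g*Spns1*-cKO replicate 1 or 3 (adjusted p = 0.0910 and 0.0830). Of the hepatocyte markers 7 of 12 were lower and 0 higher (median log2 fold change -0.55), and of the macrophage markers 11 of 12 were higher (median 2.09). Over all genes tested, 20.5% were lower and 21.3% higher. With library size only, 2 of the 12 hepatocyte markers were lower and 1 higher (median -0.11), and 12 macrophage markers were higher (median 2.54). That setting called 6.28% of all genes tested lower and 47.2% higher. In whole liver, fewer cells of a type and less RNA per cell cannot be told apart.

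Of the 49 genes, 24 were lower and 7 were higher in g*Spns1*-cKO livers, and 18 did not pass the test. Over all genes tested, 20.5% were lower and 21.3% higher. With library size only, 11 of the 49 were lower and 12 higher, beside 6.28% and 47.2% of all genes tested. The median log2 fold change of the 49 genes was -0.56, beside 0.014 for all genes tested. In 30 of them every g*Spns1*-cKO library lay below every control library, and in 8 every one lay above, where 27.0% and 27.1% of all genes tested did so (54.1% in either direction). Of the 31 genes that passed, 23 also passed in each of 6 fits that left out 1 library. At least 2-fold lower were 9 genes and at least 2-fold higher 6, compared with 5.29% and 12.6% of all genes tested.

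**Figure D1:**
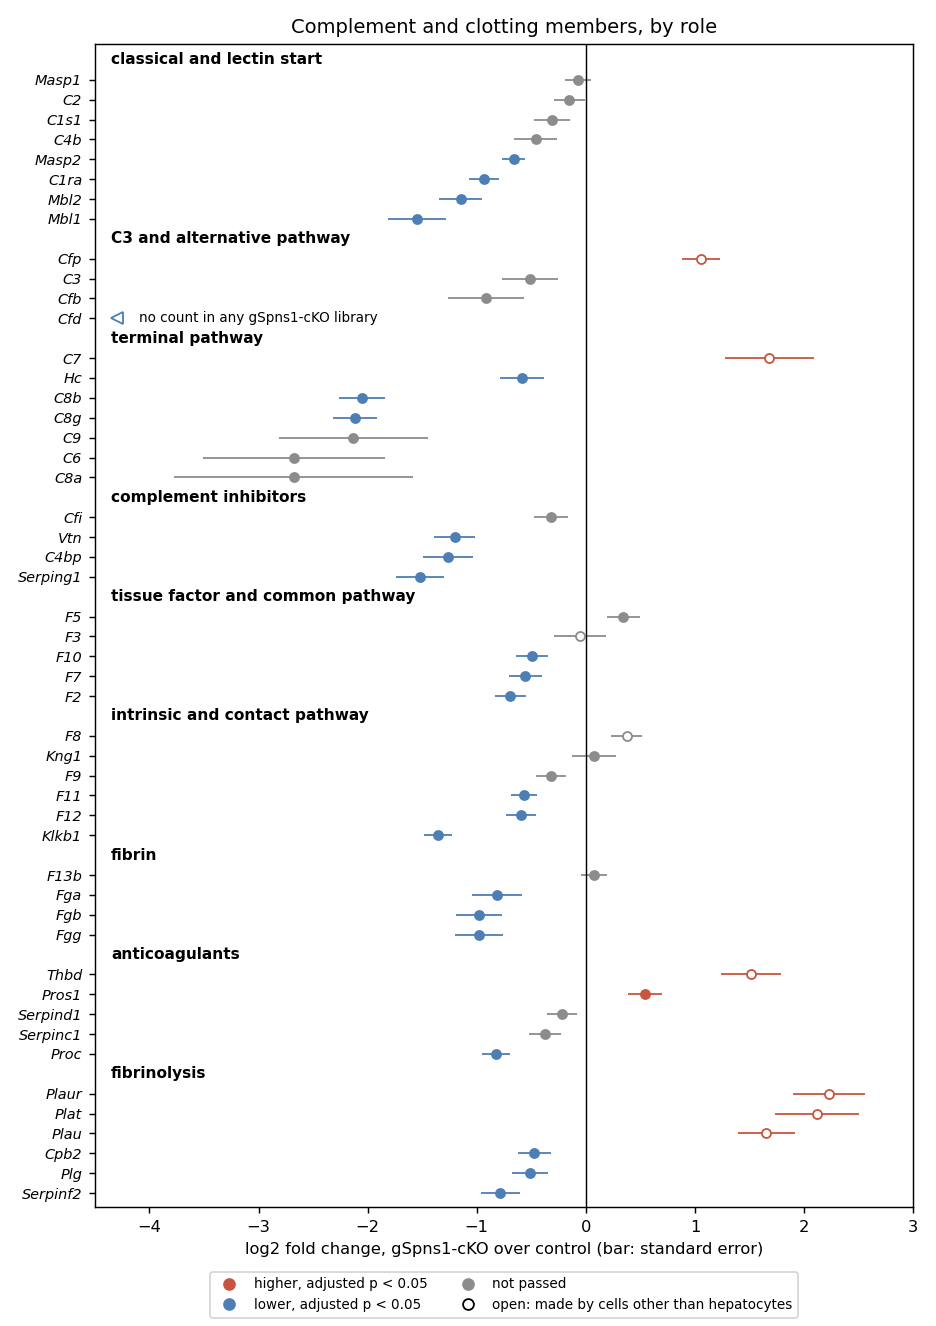
Log2 fold change of each of the 49 genes between g*Spns1*-cKO and control livers (x axis, bar: standard error, 3 livers a group), ordered by role, with colour for the call and open symbols for genes made mainly by cells other than hepatocytes. Of the 40 hepatocyte-made genes (filled) 23 were lower and 1 higher, and of the 9 others (open) 1 was lower and 6 higher, and with library size only these counts were 10 and 5, and 1 and 7; *Cfd* had no count in any g*Spns1*-cKO library and is drawn at the left edge.

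In the part of complement that starts the classical and lectin pathways, 4 of 8 genes were lower and none was higher, and with library size only 3 were lower and *Masp1* was higher. Counts by role, here and below, stand beside 20.5% of all genes tested lower and 21.3% higher. With library size only these shares were 6.28% and 47.2%. The mannose-binding lectins, which recognise sugars on microbes, fell most. *Mbl1* had 6514, 8703 and 6789 counts in the 3 control libraries and 4702, 2480 and 2839 in the g*Spns1*-cKO libraries, or 261 ± 26.3 and 89.1 ± 36.1 CPM (mean ± SD, n = 3). Its log2 fold change was -1.55 (SE 0.26, adjusted p = 0.00278), and the groups did not overlap. *Mbl2*, which in control livers had the highest level per kilobase of transcript among these genes, gave 12123, 15443 and 10458 counts, compared with 5144, 9456 and 8557, a log2 fold change of -1.15 (SE 0.19, adjusted p = 0.00126). The lowest g*Spns1*-cKO library was replicate 2 for *Mbl1* and replicate 1 for *Mbl2*, so the order of these livers differed between the lectins.

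Of the proteases that the lectins and C1q carry, *C1ra* fell by 0.94 on the log2 scale (adjusted p = 0.000522) and *Masp2* by 0.66 (adjusted p = 0.000776). *Masp2* shares 1817 exon bases with *Tardbp* on the opposite strand, and whether counting used strand is not given in the sources used here, so its value is uncertain. Their partners did not pass the test, with -0.31 for *C1s1* and -0.07 for *Masp1*. The substrates of these proteases did not pass either: *C4b*, the highest of these genes per kilobase in g*Spns1*-cKO livers, had 42058, 72053 and 59588 counts, compared with 59320, 54809 and 55944, and a log2 fold change of -0.46 (adjusted p = 0.0822), and *C2* had one of -0.15 (adjusted p = 0.408). *C4b* has a near-identical copy, *C4a*, between which reads can be split.

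At the centre of the cascade, *C3*, the protein on which all pathways converge, gave 116709, 241332 and 215740 counts in the control group and 167088, 166523 and 211493 in g*Spns1*-cKO livers. The means were 6834 ± 2351 and 4784 ± 534 CPM, and the log2 fold change of -0.51 did not pass the test (adjusted p = 0.130). Control replicate 1 was the lowest library of all 6 by CPM, and the groups overlapped. Without it the log2 fold change of *C3* was -0.79 (adjusted p = 0.00754), and against it as the only control it was 0.20. This library is shown apart because it was the lowest, and leaving it out enlarges the fall, so that adjusted p adds no support.

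In *Cfb*, the protease of the alternative pathway, control replicate 1 was likewise the lowest control, and the groups overlapped. The gene had 102, 324 and 215 counts, compared with 147, 131 and 177. Its log2 fold change was -0.92 (adjusted p = 0.0654), and -1.26 without control replicate 1 (adjusted p = 0.00173), with the same limit as for *C3*. Against control replicate 1 alone it was 0.13. Its counts were low for a hepatocyte gene. *Cfb* shares 2246 exon bases, and *C2* shares 1656, with *Gm20547* on the same strand, which was listed at 0 counts in every library, so reads may have been lost from both genes in all 6 libraries.

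The other alternative-pathway genes are made by other cells and went opposite ways. *Cfd*, the protease that activates factor B and is known best as a product of fat cells, had 236, 37 and 150 counts in the control group and 0 in every g*Spns1*-cKO liver. Taken against 3 counts per library, it was at least 65.3-fold lower (adjusted p = 0.0245), and the control libraries themselves differed from 1.20 to 8.39 CPM. In fits that left out 1 library *Cfd* passed in 2 of 6 and had an adjusted p of 0.0789 without control replicate 3 and of 0.0551, 0.0624 and 0.0520 without g*Spns1*-cKO replicates 1, 2 and 3. Of 8 adipocyte markers *Adipoq*, *Plin1* and *Lep* had at most 2 counts in any library. The list summed to 37.1 to 64.9 CPM in control and 25.1 to 37.3 CPM in g*Spns1*-cKO livers. Only 4 of these markers were tested, of which 1 was lower (log2 fold change -3.34) and 1 higher, with a median of 0.35. *Cfp*, or properdin, which stabilises the convertase and is made by myeloid cells, had 382, 510 and 473 counts, compared with 1512, 1229 and 1078 and was 2.08-fold higher (adjusted p = 0.00121), with no overlap.

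The terminal components, which assemble into the pore that lyses cells, had the lowest median of the role groups, -2.12 on the log2 scale. *C8b* and *C8g*, which encode subunits of C8, were lower without overlap between the groups. *C8b* gave 11750, 15800 and 11917 counts in control and 5480, 3298 and 3900 in g*Spns1*-cKO libraries, and its log2 fold change was -2.05 (SE 0.21, adjusted p = 8.91e-05). *C8g*, with the highest level per kilobase of this group in control livers, gave 15572, 16093 and 14794 against 6052, 3558 and 4808, a log2 fold change of -2.12 (SE 0.20, adjusted p = 5.42e-05). Both passed in each of the 6 fits that left out 1 library, between -2.37 and -1.89.

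*C6*, *C8a* and *C9* had fold changes of that size or larger that did not pass the test, and the g*Spns1*-cKO livers differed widely from one another. These genes were chosen for this description after their values were seen. *C6*, which joins the complex after C5b, had 11465, 15599 and 9427 counts in the control group and 5215, 975 and 1229 in g*Spns1*-cKO livers (log2 fold change -2.67, SE 0.83, adjusted p = 0.0621). *C8a*, the pore-forming subunit of C8, had 19653, 34052 and 30478 against 13213, 1083 and 2933 (log2 fold change -2.68, SE 1.10, adjusted p = 0.124). *C9*, which polymerises into the wall of the pore, had 14228, 21691 and 20765 against 10525, 2067 and 4599 (log2 fold change -2.13, SE 0.68, adjusted p = 0.0617).

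In all of *C6*, *C8a*, *C8b*, *C8g* and *C9* each g*Spns1*-cKO library lay below each control library, and in each of them g*Spns1*-cKO replicate 1 was the highest of its group. In *C8a* it stood at 367 CPM, with 28.2 and 74.5 CPM in the others. This library was singled out after these values were seen, and leaving out the highest of a group enlarges the fall. Without it the log2 fold changes were -3.92 for *C6* (adjusted p = 2.6e-07), -4.29 for *C8a* (adjusted p = 0.00805) and -2.99 for *C9* (adjusted p = 0.00510). Because the library was chosen by its values, these adjusted p-values add no support to the fit on all 6 libraries. Without this library 27 of the 49 genes were lower and 8 higher, beside 20.3% and 20.2% of all genes tested. DESeq2 on all 6 libraries gave adjusted p-values of 0.00534, 0.0206 and 0.00707.

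**Figure D2:**
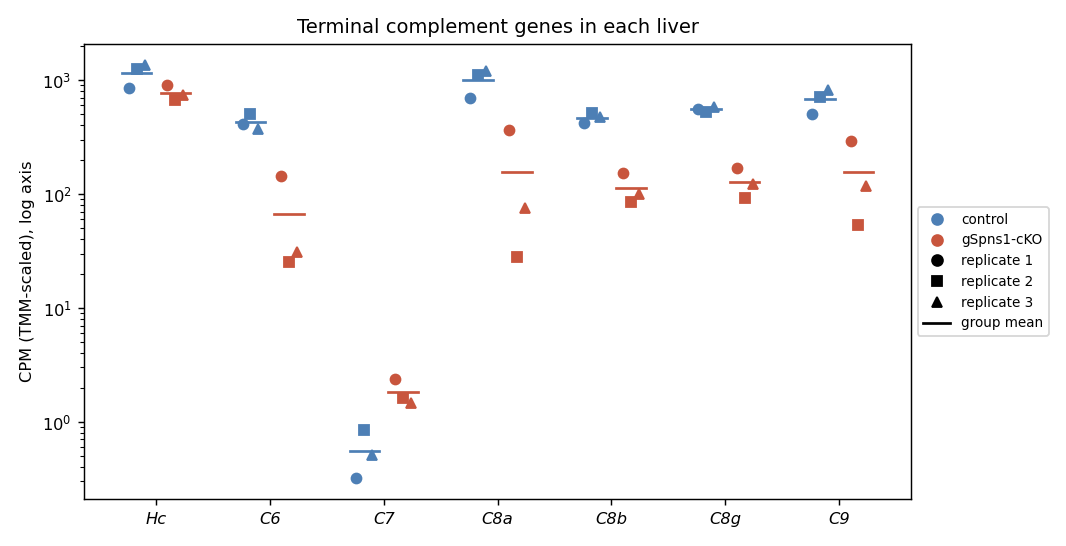
CPM of the 7 terminal complement genes in each liver (log axis), with circles, squares and triangles for replicates 1, 2 and 3 and a bar for the group mean. In *C6*, *C8a* and *C9* the g*Spns1*-cKO replicate 1 stands between the control livers and the other g*Spns1*-cKO livers, while *C7* lies near the bottom of the axis and is higher in all 3 g*Spns1*-cKO livers.

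Genes of the liver's sex-dependent programme were looked up after the values of *C6*, *C8a* and *C9* were seen. All 6 libraries expressed *Ddx3y*, a gene of the Y chromosome, at 1731 to 2568 counts, and held at most 5 counts of *Xist*. By these genes all 6 livers were male. *Cyp4a12a*, expressed in male liver, had 7275, 8058 and 4641 counts in control livers, 770 in g*Spns1*-cKO replicate 1 and 20 and 23 in the others. *Cux2*, expressed in female liver, had 19, 8 and 5 counts in control livers, 38 in g*Spns1*-cKO replicate 1 and 1511 and 1379 in the others. In both genes g*Spns1*-cKO replicate 1 lay between the control livers and the other g*Spns1*-cKO livers. The distance to the other g*Spns1*-cKO livers differed between such genes. *Slco1a1*, expressed in male liver, fell from 14791, 13161 and 8196 counts to 148, 95 and 105 in g*Spns1*-cKO replicates 1, 2 and 3. *Hsd3b5* fell from 7088, 5249 and 2910 counts to 6, 2 and 2. In *Slco1a1* and *Hsd3b5* replicate 1 was also the highest g*Spns1*-cKO liver, but all 3 were far below the controls. The part of this programme in the fall of the terminal genes was not tested.

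The remaining terminal genes differed from these. *Hc*, which encodes C5 and was the highest of the group per kilobase in g*Spns1*-cKO livers, had 23707, 38702 and 34538 counts, compared with 32769, 25545 and 28881. It was lower by 0.58 on the log2 scale (adjusted p = 0.0402), but its groups overlapped, and with a replicate block it did not pass (-0.57, adjusted p = 0.0805). It passed in 2 of the 6 fits that left out 1 library, and not without control replicate 2 or 3 (adjusted p = 0.117 and 0.151) or g*Spns1*-cKO replicate 2 or 3 (adjusted p = 0.110 and 0.121). *C7*, made mainly by fibroblasts and other mesenchymal cells, had only 9, 26 and 13 counts in control and 86, 62 and 57 in g*Spns1*-cKO livers. It was 3.21-fold higher (log2 fold change 1.68, SE 0.40, adjusted p = 0.00766), with every g*Spns1*-cKO library above every control library.

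*C8a* and *C8b* are neighbours, together spanning chr4:104766317-104876398 (GRCm38, 110.1 kb), and *C6* and *C9* both lie on chromosome 15. The 250 bases before their start sites are shown because these genes were low in the same livers. The sequences are from RefSeq (GRCm38.p6) and are written 5′ to 3′ on the strand of the gene, at chr15:4726960-4727209 (+) for *C6*, chr4:104876399-104876648 (-) for *C8a*, chr4:104766067-104766316 (+) for *C8b* and chr15:6445096-6445345 (+) for *C9*. Capitals mark a match to any of 5 motifs of liver and acute-phase promoters listed with the fibrinogen genes, in which N is any base and both strands are read.
C6: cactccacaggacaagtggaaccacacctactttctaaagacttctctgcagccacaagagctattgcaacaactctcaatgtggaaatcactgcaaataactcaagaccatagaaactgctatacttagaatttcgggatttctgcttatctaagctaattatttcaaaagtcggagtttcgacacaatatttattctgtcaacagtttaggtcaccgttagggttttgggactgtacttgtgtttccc
C8a: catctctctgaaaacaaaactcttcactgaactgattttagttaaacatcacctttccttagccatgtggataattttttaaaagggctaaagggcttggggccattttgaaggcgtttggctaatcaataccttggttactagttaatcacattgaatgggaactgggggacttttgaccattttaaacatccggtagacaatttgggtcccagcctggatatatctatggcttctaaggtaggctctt
C8b: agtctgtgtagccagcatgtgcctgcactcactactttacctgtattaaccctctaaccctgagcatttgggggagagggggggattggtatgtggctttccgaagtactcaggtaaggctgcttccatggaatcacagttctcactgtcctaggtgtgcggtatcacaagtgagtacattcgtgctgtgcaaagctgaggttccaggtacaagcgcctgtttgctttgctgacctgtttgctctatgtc
C9: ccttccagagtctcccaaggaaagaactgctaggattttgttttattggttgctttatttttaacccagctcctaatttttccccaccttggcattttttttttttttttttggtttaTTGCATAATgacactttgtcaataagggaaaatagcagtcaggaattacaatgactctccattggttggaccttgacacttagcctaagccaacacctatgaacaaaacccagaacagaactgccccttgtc
Of the 4 windows only that of *C9* held a match, to the C/EBP motif TTGCNNAAT, 132 bases before the start.

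The inhibitors of complement fell as well, with 3 of 4 lower, beside 20.5% of all genes tested, and a median of -1.23. *Serping1*, the C1 inhibitor, which also blocks plasma kallikrein and factor XII, had 24403, 39980 and 34496 counts in the control group and 18729, 13605 and 14028 in g*Spns1*-cKO livers. It was 2.86-fold lower (log2 fold change -1.52, SE 0.22, adjusted p = 0.000506). *C4bp*, which speeds the decay of the classical convertase, gave 20139, 25713 and 24207 counts, compared with 17249, 10023 and 11986 (log2 fold change -1.26, SE 0.23, adjusted p = 0.00195). For these and for vitronectin the groups did not overlap. *Vtn*, or vitronectin, which keeps the terminal complex from inserting into membranes, had the highest level per kilobase of the inhibitors, with 87862, 138773 and 112379 counts, compared with 69720, 64603 and 64006 and a log2 fold change of -1.20 (SE 0.19, adjusted p = 0.000728). *Cfi*, the protease that cleaves C3b and the matching fragment of C4, did not pass, at -0.32 (adjusted p = 0.118).

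On the clotting side the changes of hepatocyte genes were smaller. In the tissue factor and common pathway 3 of 5 genes were lower, beside 20.5% of all genes tested. The falls were 0.56 for *F7*, 0.49 for *F10* and 0.69 for *F2* on the log2 scale (adjusted p = 0.0144, 0.0220 and 0.00357). With library size only none of the 3 passed, at -0.11, -0.05 and -0.25. In that setting *F5* was higher (0.79), as were 47.2% of all genes tested. *F2*, prothrombin, the precursor of thrombin, gave 62634, 75236 and 59507 counts in the control group and 53847, 53583 and 56994 in g*Spns1*-cKO livers, or 2340 ± 108 and 1446 ± 50.2 CPM. The livers within each group lay close together and the groups did not overlap. Without control replicate 2 or 3 the adjusted p was 0.0596 and 0.0548 for *F7* and 0.0776 and 0.0729 for *F10*, and that of *F10* was 0.0550 without g*Spns1*-cKO replicate 3. *F5*, the cofactor of factor Xa, had 0.34 (adjusted p = 0.0879). *F3*, tissue factor, which starts coagulation outside the vessel, had 136, 117 and 78 counts, compared with 127, 178 and 123, overlapping groups and a log2 fold change of -0.05 (SE 0.24, adjusted p = 0.873).

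In the intrinsic and contact pathway, the cascade that starts on charged surfaces, 3 of 6 genes were lower, beside 20.5% of all genes tested. With library size only *Klkb1* was lower and *Kng1* and *F8* were higher, beside 6.28% and 47.2% of all genes tested. *Klkb1*, plasma prekallikrein, fell most of all 26 clotting genes, from 8242, 8098 and 7767 counts to 4457, 4343 and 3949, which was 2.56-fold lower (log2 fold change -1.35, SE 0.13, adjusted p = 4.51e-05). The 3 livers of each group lay close together. *Klkb1* shares 2267 exon bases with *Gm45753* on the same strand, which had 1 count in all. *F11* and *F12*, the zymogens that work beside prekallikrein, fell by 0.57 and 0.59 on the log2 scale (adjusted p = 0.00350 and 0.00583).

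*Kng1*, high-molecular-weight kininogen, which carries prekallikrein in plasma, had the highest level per kilobase of this group and did not pass the test. It had 75137, 92236 and 81799 counts in control and 83246, 144400 and 129753 in g*Spns1*-cKO libraries, a log2 fold change of 0.08 (SE 0.20, adjusted p = 0.787). Its groups overlapped, and it has a close copy, *Kng2*, between which reads can be split. *F9*, the haemophilia B factor, had -0.32 (adjusted p = 0.0853). *F8*, its cofactor, made by sinusoidal endothelium, had 241, 274 and 245 counts, compared with 471, 395 and 464 and 0.37 (SE 0.14, adjusted p = 0.0547), without overlap between the groups.

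The 3 chains of fibrinogen, the protein that forms the clot, are encoded side by side at chr3:83007724-83049863 (GRCm38, 42.1 kb), and fell together. *Fga* had 94953, 193783 and 130565 counts in the control group and 100870, 124056 and 93842 in g*Spns1*-cKO livers (log2 fold change -0.82, SE 0.23, adjusted p = 0.0175). *Fgb* had 109251, 195383 and 144232 and 105555, 111612 and 88205 (log2 fold change -0.98, SE 0.21, adjusted p = 0.00451), and *Fgg* 89107, 164948 and 118264 and 89977, 90191 and 71923 (log2 fold change -0.98, SE 0.22, adjusted p = 0.00512). By CPM the groups did not overlap in any chain, but *Fga* did not pass without control replicate 2 or 3 or g*Spns1*-cKO replicate 3 (adjusted p = 0.0735, 0.0586 and 0.0756), and in all 3 the lowest control liver was replicate 1 and the highest replicate 2. *F13b*, which encodes the carrier subunit of the fibrin-crosslinking enzyme, stayed at 0.08 (SE 0.12, adjusted p = 0.632). With library size only no chain passed (adjusted p = 0.198, 0.0515 and 0.0557) and *F13b* was higher, at 0.52.

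The proportions of the chains were compared within libraries. The ratio of *Fgg* to *Fgb* counts within a library was 0.827 ± 0.0154 in control and 0.825 ± 0.0238 in g*Spns1*-cKO livers (p = 0.9, exact permutation test, two-sided, n = 3), and that of *Fga* to *Fgb* 0.922 ± 0.063 and 1.04 ± 0.0799 (p = 0.2, exact permutation test, n = 3), where the smallest p that 3 livers against 3 allow is 0.1. The 250 bases before each start are shown because the 3 genes were lower together, from RefSeq (GRCm38.p6), 5′ to 3′ on the strand of the gene, at chr3:83025903-83026152 (+) for *Fga*, chr3:83049864-83050113 (-) for *Fgb* and chr3:83007474-83007723 (+) for *Fgg*. Capitals mark matches to the C/EBP motif and, nearer the start, to GTTAATNAT, the motif of the hepatocyte factor HNF1, in *Fga*, and to CTGGGAA, the core of the interleukin-6 response element of acute-phase genes, in *Fgb* and *Fgg*.
Fga: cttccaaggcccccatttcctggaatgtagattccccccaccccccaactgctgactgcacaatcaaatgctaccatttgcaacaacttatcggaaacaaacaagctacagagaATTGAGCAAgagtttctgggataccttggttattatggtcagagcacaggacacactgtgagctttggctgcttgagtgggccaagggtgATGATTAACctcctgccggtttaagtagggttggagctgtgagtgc
Fgb: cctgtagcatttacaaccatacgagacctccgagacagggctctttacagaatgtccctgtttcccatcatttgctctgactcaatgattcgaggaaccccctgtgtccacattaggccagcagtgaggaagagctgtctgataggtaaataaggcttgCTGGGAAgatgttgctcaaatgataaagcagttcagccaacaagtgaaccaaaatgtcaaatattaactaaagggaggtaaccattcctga
Fgg: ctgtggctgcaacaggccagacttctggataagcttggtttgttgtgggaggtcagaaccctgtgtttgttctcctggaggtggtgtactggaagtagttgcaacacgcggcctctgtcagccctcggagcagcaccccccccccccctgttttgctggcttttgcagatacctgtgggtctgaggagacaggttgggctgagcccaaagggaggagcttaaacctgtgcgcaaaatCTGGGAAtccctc
The matches begin 136 and 46 bases before the start of *Fga*, 91 before that of *Fgb* and 13 before that of *Fgg*.

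Such matches were counted in the 37 genes of the 49 that have a promoter in the RefSeq table, beside all 27025 genes in it, over the same 250 bases and on both strands. The motif CTGGGAA was present in 6 of the 37 (16.2%, beside 10.4% of all genes), namely *C1ra*, *Masp2*, *C7*, *F9*, *Fgb* and *Fgg*. TTGCNNAAT was present in 5 (13.5%, beside 2.45%), namely *C1s1*, *C3*, *C9*, *F9* and *Fga*. GTTAATNAT, for the hepatocyte factor HNF1, was present in 4 (10.8%, beside 0.866%), namely *Hc*, *C4bp*, *Fga* and *F13b*. GGNNTTTCC, for NF-kB, was present in 1 (2.7%, beside 5.62%), *F3*, and CAAAGTCCA, for HNF4, in 0 of the 37 and in 0.451% of all genes. These are counts of letters in a short window and do not show binding. *Cfi*, *Plg*, *Plau*, *Plat*, *C2*, *Proc*, *Kng1*, *Thbd*, *Serping1*, *Masp1*, *C4b* and *Cfb* had no promoter sequence to search.

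The control livers were unlike in acute-phase genes, which were looked up after the fibrinogen values were seen. By CPM, control replicate 1 lay within the range of the g*Spns1*-cKO livers for *Saa1* and *Hp*, and control replicates 2 and 3 lay far above it. *Saa1*, a serum amyloid A gene that rises steeply in inflammation, had 1864 counts in control replicate 1 and 108846 and 138216 in the other control livers, beside 5940, 728 and 1736 in g*Spns1*-cKO livers. *Hp*, haptoglobin, had 91322 counts there and 423014 and 330692 in the other controls, beside 107877 to 120970 in g*Spns1*-cKO livers. Fibrinogen, *C3*, *C4b* and *Cfb* were lowest in the same control liver. Set against this control alone, the log2 fold changes of *Fga*, *Fgb* and *Fgg* were -0.28, -0.54 and -0.52, and none passed the test (adjusted p = 0.493, 0.182 and 0.200). Without it they were -1.04, -1.17 and -1.19. Against this control alone 11 of the 49 genes were lower and 6 higher, beside 7.69% and 8.98% of all genes tested, and without it 28 and 6, beside 17.9% and 18.2%. It was the lowest control for 30 of the 40 hepatocyte-made genes. The part of the acute-phase state of the control livers in the fall of fibrinogen was not tested.

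**Figure D3:**
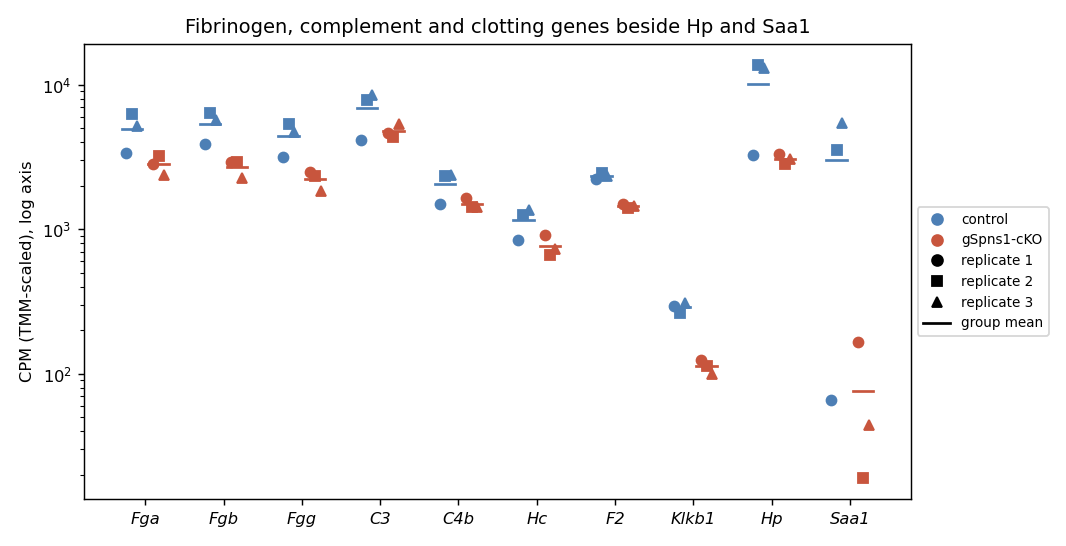
CPM of fibrinogen, complement and clotting genes in each liver beside the acute-phase genes *Hp* and *Saa1* (log axis; circles, squares and triangles are replicates 1, 2 and 3, bars are group means). Control replicate 1 is the lowest control for *Fga*, *Fgb*, *Fgg*, *C3*, *C4b*, *Hc*, *Hp* and *Saa1*, while the controls lie close together for *F2* and *Klkb1*.

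Of the 5 natural anticoagulants 1 was lower and 2 were higher. Over all genes tested 20.5% were lower and 21.3% higher, so the count of lower genes is near that share. *Proc*, protein C, which inactivates factors Va and VIIIa, had the highest level per kilobase of the group and fell from 17902, 21025 and 17045 counts to 12629, 15400 and 14671 (log2 fold change -0.82, SE 0.13, adjusted p = 0.000805). Its cofactor *Pros1*, protein S, was the only hepatocyte-made gene of the 40 that was higher, with 2014, 2734 and 2587 counts, compared with 3819, 5646 and 5063 (log2 fold change 0.54, SE 0.16, adjusted p = 0.0200). Both differences were without overlap, and the ratio of *Proc* to *Pros1* counts within a library was 7.72 ± 1.15 in control and 2.98 ± 0.298 in g*Spns1*-cKO livers. *Pros1* passed in 2 of the 6 fits that left out 1 library, and not without control replicate 1 or 2 (adjusted p = 0.0769 and 0.0631) or g*Spns1*-cKO replicate 2 or 3 (adjusted p = 0.0625 and 0.0589).

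*Thbd*, thrombomodulin, the endothelial receptor through which thrombin activates protein C, was 2.86-fold higher, with 97, 63 and 84 counts in control and 341, 216 and 394 in g*Spns1*-cKO livers (log2 fold change 1.51, SE 0.27, adjusted p = 0.00183). The serpins that block thrombin did not pass the test, with -0.38 for *Serpinc1*, antithrombin (adjusted p = 0.0603), and -0.22 for *Serpind1*, heparin cofactor II (adjusted p = 0.229). Within a library the ratio of *F2* to *Serpinc1* counts was 1.09 ± 0.105 in control and 0.875 ± 0.0392 in g*Spns1*-cKO livers, without overlap. Of the 6 genes whose products need vitamin K (*F2*, *F7*, *F9*, *F10*, *Proc* and *Pros1*), 4 were lower and 1 was higher, beside 20.5% and 21.3% of all genes tested. With library size only 1 was lower (*Proc*) and 1 higher (*Pros1*), beside 6.28% and 47.2%.

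Fibrinolysis divided by the source of its genes. The hepatocyte-made genes were all lower: *Plg*, plasminogen, by 0.51 on the log2 scale (adjusted p = 0.0291), *Cpb2*, a carboxypeptidase that protects fibrin, by 0.47 (adjusted p = 0.0282), and *Serpinf2*, the inhibitor of plasmin, by 0.78 (adjusted p = 0.00539). With library size only none of the 3 passed, at -0.06, -0.03 and -0.34 (adjusted p = 0.750, 0.888 and 0.124). *Plg* had 42486, 60269 and 51729 counts, compared with 43593, 52043 and 51224, and was the highest of this group per kilobase in g*Spns1*-cKO livers. *Serpinf2*, the highest per kilobase in control livers, had 26829, 43949 and 32281 counts, compared with 25470, 29696 and 25279, which by CPM did not overlap. Neither *Plg* nor *Cpb2* passed without control replicate 2 or 3 (adjusted p = 0.0873 and 0.112 for *Plg*, 0.0540 and 0.119 for *Cpb2*) or without g*Spns1*-cKO replicate 3 (0.0884 and 0.0742), and *Cpb2* had an adjusted p of 0.0779 without g*Spns1*-cKO replicate 2. The plasminogen activators and their receptor were all higher.

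*Plat*, tissue plasminogen activator, had 12, 31 and 11 counts in the control group and 97, 80 and 136 in g*Spns1*-cKO livers and was 4.34-fold higher (log2 fold change 2.12, SE 0.38, adjusted p = 0.00170). *Plau*, urokinase, had 35, 42 and 22 and 119, 138 and 162 (3.15-fold, log2 fold change 1.65, SE 0.26, adjusted p = 0.000741), and its receptor *Plaur* 11, 29 and 22 and 106, 148 and 141 (4.70-fold, log2 fold change 2.23, SE 0.33, adjusted p = 0.000547). None of the groups overlapped, and each gene passed in all 6 fits that left out 1 library. Their levels stayed low, at 2.74 ± 0.688, 3.67 ± 0.412 and 3.46 ± 0.467 CPM in g*Spns1*-cKO livers.

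**Figure D4:**
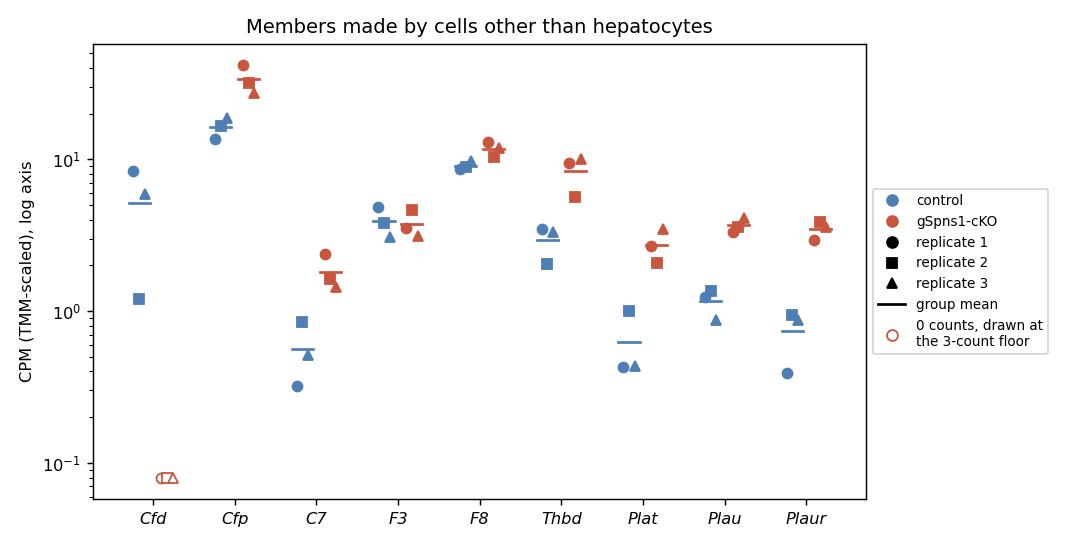
CPM of the 9 genes made mainly by cells other than hepatocytes in each liver (log axis; circles, squares and triangles are replicates 1, 2 and 3, bars are group means). In 7 of the 9 all g*Spns1*-cKO livers lie above all control livers, *F3* overlaps, and *Cfd* has no count in the g*Spns1*-cKO livers, drawn open at the level of 3 counts.

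Counted by source, 23 of 40 hepatocyte-made genes were lower and 1 was higher, while of the 9 others 1 was lower and 6 were higher. The medians were -0.63 and 1.51 on the log2 scale. Over all genes tested, 20.5% were lower and 21.3% higher. With library size only, 10 of the 40 were lower and 5 higher, and 1 of the 9 was lower and 7 higher. That setting called 6.28% of all genes tested lower and 47.2% higher. Most markers of macrophages, of stellate cells and fibroblasts and of sinusoidal endothelium were higher too, while of 4 adipocyte markers tested 1 was higher and 1 lower. Macrophage markers summed to 198 to 325 CPM in control and 775 to 1140 CPM in g*Spns1*-cKO livers. Markers of stellate cells and fibroblasts, 9 of 12 higher, summed to 242 to 276 and 626 to 664 CPM. Those of sinusoidal endothelium, 6 of 10 higher, summed to 245 to 269 and 348 to 400 CPM. Of 10 neutrophil markers 4 were tested and were higher, but the list summed to only 3.80 to 15.8 CPM and *Ly6g* had at most 2 counts in any library. Of 8 cholangiocyte markers 7 were tested and 6 were higher, with sums of 59.4 to 77.7 and 186 to 300 CPM. Of 8 platelet markers 3 were tested and 1 was higher, with sums of 4.86 to 7.24 and 5.44 to 6.66 CPM. The part of these cells in the rise of *Cfp*, *C7*, *Thbd*, *Plat*, *Plau* and *Plaur* was not tested.

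Within the hepatocyte-made class, complement and clotting genes were set side by side as a description, with no test. Of 20 complement genes 10 were lower and 0 higher, with a median of -1.04, and of 20 clotting genes 13 were lower and 1 was higher, with a median of -0.53, close to the -0.55 of the 12 hepatocyte markers. At least 2-fold lower were 7 of these complement genes (*Mbl1*, *Mbl2*, *C8b*, *C8g*, *C4bp*, *Serping1* and *Vtn*) and 1 clotting gene (*Klkb1*). With library size only the medians were -0.60 and -0.09, beside -0.11 for the hepatocyte markers and 0.46 for all genes. In that setting 8 complement and 2 clotting genes were lower while 1 and 4 were higher, where 6.28% of all genes tested were lower and 47.2% higher.

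A further scaling, chosen after the data were seen, set the geometric mean count of the hepatocyte markers equal in all libraries. The medians were then -0.50 for complement and 0.01 for clotting, with 7 of 20 and 1 of 20 genes lower and 2 and 4 higher, where 4.82% of all genes tested were lower and 53.3% higher. Under this scaling *Mbl1*, *Mbl2*, *C8b*, *C8g*, *C4bp*, *Serping1*, *Vtn* and *Klkb1* stayed lower, from -1.56 for *C8g* to -0.62 for *Mbl2*. The fibrinogen chains no longer passed, at -0.28 to -0.44 (adjusted p = 0.0742 to 0.275).

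**Figure D5:**
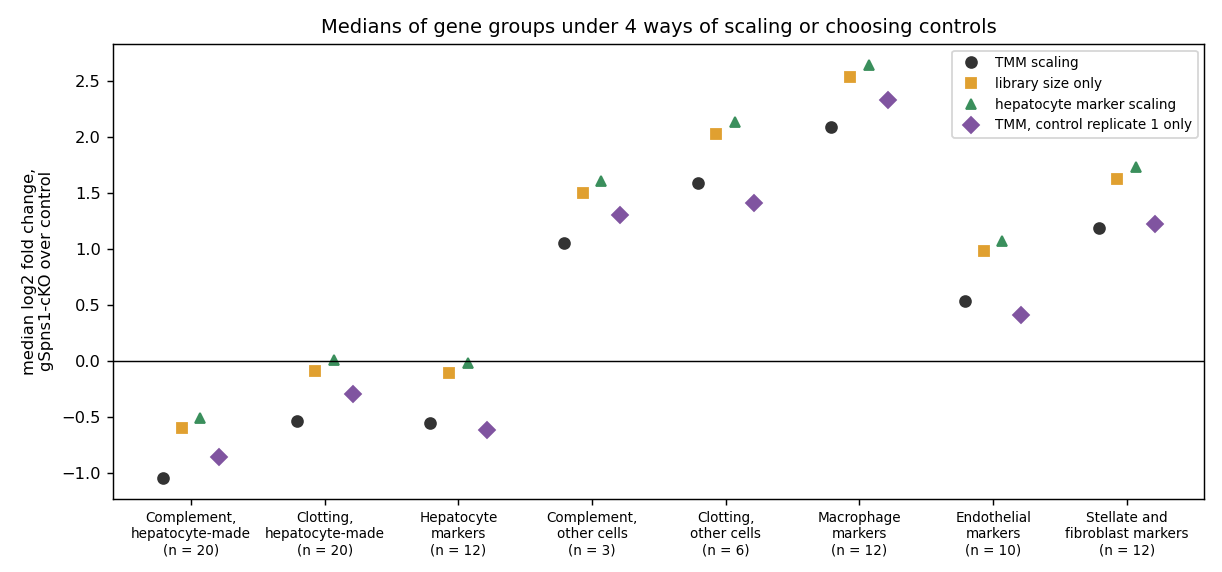
Median log2 fold change (y axis) of hepatocyte-made and other complement and clotting genes and of cell type markers, for TMM scaling, library size only, hepatocyte marker scaling, and TMM with control replicate 1 as the only control (n: genes tested). Library size and hepatocyte marker scaling each move all medians by about the same amount. That of the hepatocyte-made clotting genes goes from -0.53 with TMM to 0.01 with hepatocyte marker scaling, and that of the complement genes from -1.04 to -0.50. Control replicate 1 as the only control moves the medians by unlike amounts and in both directions.

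Ratios of partner genes within a library do not depend on the scaling, and 14 were compared (two-sided exact permutation test; the smallest p for 3 livers against 3 is 0.1, or 0.233 after adjustment over the 14). In 6 of them the groups did not overlap. *Kng1* stood at 10.3 ± 1.15 counts per count of *Klkb1*, its cargo, in control livers and at 28.3 ± 8.30 in g*Spns1*-cKO livers. *C1s1*, the protease, stood at 0.382 ± 0.101 per count of its inhibitor *Serping1* and at 0.852 ± 0.0866 in g*Spns1*-cKO livers. *Plg* stood at 1.52 ± 0.128 per count of *Serpinf2*, the inhibitor of its product, and at 1.83 ± 0.171 in g*Spns1*-cKO livers. *Masp1* stood at 0.929 ± 0.0516 and 1.40 ± 0.114 per count of *Masp2*. The remaining pairs without overlap were *F2* with *Serpinc1* and *Proc* with *Pros1*, given above. The ratio of *C8g* to *C8b* differed by less than the spread between livers, at 1.20 ± 0.159 and 1.14 ± 0.0825 (p = 0.7, exact permutation test, n = 3). The ratio of *C8a* to *C8b* ranged widely, with 1.67, 2.16 and 2.56 in the controls and 2.41, 0.328 and 0.752 in g*Spns1*-cKO livers (p = 0.3, exact permutation test, n = 3).

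Per kilobase of transcript, the highest of the 49 genes in control livers were *Fgg* at 2101 CPM per kb, *Vtn* at 1981, *Fga* at 1641, *Fgb* at 1393 and *C3* at 1329. In g*Spns1*-cKO livers *Fgg* stood at 1063, *Kng1* at 961, *Fga* at 932, *C3* at 930 and *Vtn* at 861 CPM per kb. *Kng1*, at 912 in control livers, thus ranked below *Vtn* in control and above it in g*Spns1*-cKO livers. The lowest in control livers was *Plat*, at 0.0997 CPM per kb, and in g*Spns1*-cKO livers *Cfd*, with no count, followed by *Plat* at 0.440. Together the 49 genes took 3.49, 5.0 and 4.72% of all raw counts in the controls and 3.70, 3.70 and 3.54% after deletion of *Spns1*, so the groups overlapped through control replicate 1. The 7 terminal genes took 0.296, 0.402 and 0.402% and then 0.236, 0.112 and 0.137%, without overlap.

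Other genes of the pathways were taken from a list of receptors, regulators and relatives. Of 32 related complement genes 27 were tested, of which 14 were higher and 8 lower, and with library size only 16 and 2. Over all genes tested 21.3% were higher and 20.5% lower, and with library size only 47.2% and 6.28%. The highest were *Itgax* (log2 fold change 3.29) and *Itgb2* (1.94), which encode the chains of complement receptor 4, *C3ar1* (2.84), the receptor of C3a, and *Vsig4* (2.04), a receptor for C3b on Kupffer cells. *C1qa*, *C1qb* and *C1qc*, the macrophage-made chains of C1q, were higher by 1.15, 1.42 and 1.52. The lowest were *Susd4* (-3.55), a complement regulator, *C4a* (-2.84), the copy of *C4b*, *Cd59b* (-1.39), which blocks *C9*, and *Clu* (-0.91), clusterin.

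Of 39 related clotting genes 32 were tested, of which 10 were higher and 9 lower, beside 21.3% and 20.5% of all genes tested. With library size only 16 were higher and 3 lower, beside 47.2% and 6.28%, so the count higher is near that share. *F2rl1* (4.09), a protease-activated receptor, *F13a1* (2.64), the catalytic subunit of factor XIII, *Pf4* (2.27), a platelet chemokine, and *Anxa2* (2.15), which binds plasminogen and *Plat* protein at cell surfaces, had the highest log2 fold changes. *Serpine2* (-3.25), a thrombin inhibitor, *Serpina10* (-1.14), the inhibitor of factor Xa that works with protein Z, *Hpn* (-1.08), a protease that can activate factor VII, and *Hgfac* (-0.95), a protease related to factor XII, had the lowest. *F2rl1* and *F13a1* rested on at most 5 counts per control library. The groups of *Serpina10* overlapped, it passed in 2 of 6 fits that left out 1 library, and it did not pass with library size only (adjusted p = 0.115). *C1qa*, *C1qb* and *C1qc* were named after their values were seen.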

How the data were processed

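Liver RNA-Seq libraries of 3 g*Spns1*-cKO and 3 control mice were grouped by the sample labels. The authors deposited counts per gene, not normalized, and FPKM values made from them. The submitters' processing notes name fastp, HISAT2 2.0.5, featureCounts 1.5.0-p3 and mm10; the use of strand in counting is not given in the sources used here. The table also holds the authors' own comparison (group means, fold changes and p-values), which was not used, and neither were the FPKM values.

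Counts were tested in R 4.3.3 with edgeR 4.0.16 (filterByExpr, TMM, robust glmQLFit, no covariate, Benjamini-Hochberg adjustment over 15449 genes, threshold 0.05), and the code was tested on simulated counts. DESeq2 1.42.0 and limma 3.58.1 (voom) were alternatives, beside library size, RLE and upper-quartile scaling, other filters, a stricter threshold, a replicate block and leaving out each library. CPM are mean ± SD over 3 livers, at which 3 counts are 0.0762 to 0.118 CPM; such floors cover counting error only, since reads carry no molecular identifiers. Ratios of counts were compared by two-sided exact permutation tests. Of the 54532 genes, 54409 were found in GENCODE M21 (GRCm38), 98.3% of them with the same coordinates, and 47 of the 49 genes described. No libraries of a group differed by as little as sampling noise (chi-square per gene 38.8 to 114).

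The genes and lists were chosen with earlier results of these data known. Counts per library are given for genes past the threshold with a log2 fold change of at least 1 in size, for the highest gene per kilobase of each role in either group, for genes made by other cells and for fibrinogen, and the 4 highest and 4 lowest called genes of each related list are named. Genes named outside this rule were chosen after their values were seen. A few results on items withheld from this text are not reported here.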

Additional observations from a re-analysis of the deposited data

How the results depend on the processing

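The count of 24 lower and 7 higher genes rested on the scaling more than on the test. With DESeq2 30 were lower and 7 higher, and with limma-voom 26 and 7. With library size only 11 were lower and 12 higher, the median of the clotting genes turned from -0.42 to 0.021, and the medians of complement, hepatocyte-made and other genes were -0.49, -0.19 and 1.96. Upper-quartile scaling gave medians of -0.81 for complement, -0.29 for clotting and -0.50 for hepatocyte-made genes. Scaling to hepatocyte markers, chosen after seeing the data, gave 9 lower and 13 higher genes and medians of -0.39, 0.12, -0.090 and 2.07 for complement, clotting, hepatocyte-made and other genes. It turned *C2* to 0.40, *F10* to 0.047, *Plg* to 0.032 and *Cpb2* to 0.077, and *Masp1* to 0.47 (0.37 with library size only). In all, 13 of the 49 genes had the other sign under this scaling, 3 of them past the threshold with TMM, and 8 with library size only, none of them past the threshold with TMM. The causes were not tested beyond the scaling itself.

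With control replicate 1 as the only control, also chosen after seeing the data and with the lone control assumed to vary like the other group, 2818 genes changed, 11 of the 49 were lower and 6 higher, and the medians were -0.27 for clotting and -0.44 for hepatocyte-made genes. A filter of at least 10 counts in every library gave medians of -0.38 and -0.59. At a threshold of 0.01, 3890 genes changed, 17 of the 49 lower and 6 higher. With each library left out in turn, 17 to 28 of the 49 genes were lower, and the medians ranged from -1.19 to -0.83 for complement, from -0.47 to -0.36 for clotting, from -0.76 to -0.61 for hepatocyte-made and from 1.30 to 1.67 for other genes. The lowest count of all genes changed was 4490, without g*Spns1*-cKO replicate 3. *Spns1* had a log2 fold change of -1.18 to -0.68 in these fits, 3 of which it passed, and of -0.43 with library size only, -0.74 with upper-quartile scaling, -0.35 with hepatocyte marker scaling and -0.71 with control replicate 1 alone, none of the last 4 past the threshold.

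Same-numbered libraries did not deviate together (correlations of 0.037, 0.033 and -0.028), so the replicate numbers were not taken as pairs. A replicate block called 6100 genes in place of 6452 and changed 1 call among the 49, *Hc* (-0.57, adjusted p = 0.0805). Depth was lowest for *C7*, *Plat* and *Plaur*, with at most 31 counts in any control library.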
